A study of Mus musculus with 6 samples.

Results

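Hs6st2 encodes heparan sulfate 6-O-sulfotransferase 2, and its transcript was followed in the adrenal glands of mice without the neuropeptide PACAP and of wild-type mice. All clones whose gene symbol is Hs6st2 were taken, which gave 3 of the 36025 cDNA clones on the array, where 22368 clones are named for a single gene and 11837 genes have a clone. The gene was chosen by its knockout over wild-type ratio in these same arrays, so its own values are a description and carry no test. The knockout RNA came from PACAP -/- adrenal gland and was labelled with Cy3 (green), and the wild-type RNA came from PACAP +/+ adrenal gland and was labelled with Cy5 (red). Both genotypes were F2 mice of the 129XC57BL6 cross, and the sources used here give neither sex nor age. Each of 6 spotted cDNA arrays held 1 knockout and 1 wild-type RNA, numbered alike. No array had the dyes exchanged, so a dye effect of a clone cannot be told apart from a genotype effect. The labels do not say that the arrays held RNA of separate animals, so p-values measure only how these 6 arrays differ among themselves, and that spread may be technical.

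Heparan sulfate is a long sugar chain attached to proteoglycans at the cell surface and in the matrix. The chain is built on a linker, extended by exostosins, and then modified by sulfotransferases that place sulfate at set positions on its sugars. The 6-O-sulfotransferases add sulfate to the 6-O position of glucosamine, and the extracellular endosulfatases Sulf1 and Sulf2 remove part of it again. The pattern of 6-O-sulfate affects how the chain binds fibroblast growth factors and their receptors, among other ligands. PACAP is released by splanchnic nerve endings in the adrenal medulla, where it drives chromaffin cells to secrete catecholamines, and its receptor raises cAMP.

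Hs6st2 lies on the X chromosome at chrX:51386637-51681705 of GRCm38.p6, on the minus strand, spans 295069 bases and has 4 curated RefSeq transcripts. The 3 clones belong to 1 UniGene cluster in the scanner files, which has no other spot, and are titled there only as expressed sequence tags. They are called here by the print block, the area spotted by 1 pin, in which they lie, namely blocks 34, 38 and 39. The clones' own sequences, and thus their exons, were not used here. RefSeq gives 2 start sites for the gene, and their windows, 250 bases before to 50 bases after each start on GRCm38.p6, are shown because PACAP signals through cAMP and the cAMP response element is a known promoter motif. The windows lie at chrX:51681553-51681852 and chrX:51680428-51680727, both on the minus strand. Capitals mark TGACG, the core of the cAMP response element, searched on both strands.
Hs6st2 start site 1: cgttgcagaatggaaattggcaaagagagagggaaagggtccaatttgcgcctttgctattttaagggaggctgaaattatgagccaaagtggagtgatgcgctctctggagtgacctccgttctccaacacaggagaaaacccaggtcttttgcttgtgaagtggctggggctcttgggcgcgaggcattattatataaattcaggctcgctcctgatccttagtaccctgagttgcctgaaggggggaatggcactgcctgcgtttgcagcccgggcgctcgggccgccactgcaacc
Hs6st2 start site 2: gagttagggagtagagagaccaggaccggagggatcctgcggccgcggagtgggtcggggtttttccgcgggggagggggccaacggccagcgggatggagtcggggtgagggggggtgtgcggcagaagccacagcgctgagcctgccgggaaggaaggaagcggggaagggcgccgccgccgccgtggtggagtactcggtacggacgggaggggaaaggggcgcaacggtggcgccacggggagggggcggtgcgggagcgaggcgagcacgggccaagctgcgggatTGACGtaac
The first window has no TGACG and a GC content of 53.7%, and the second has 1, starting at base 292 of the window, with a GC content of 71.7%. TGACG occurs in 20.9% of the 32544 RefSeq promoter windows of this length. The palindrome TGACGTCA, which contains TGACG, occurs in 1.80% of them and in neither window of Hs6st2. These letters are a description of the windows, and promoter activity was not measured.

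Facts of the whole set frame the values. The ratio-quality filter of 0.3 kept 26027 to 31960 of the 37632 spots per array. The green knockout signal had a median of 5.38 to 7.06 times its local background, and the red wild-type signal 1.14 to 4.79 times. Before normalization the median log2 ratio of knockout over wild type was 0.37 on array 1 and 1.21 to 2.15 on arrays 2 to 6. Adcyap1, the gene of PACAP, gave no check of the labels, because its single clone passed the quality filter on 2 of 6 arrays. Markers of the adrenal cortex and of chromaffin cells were measured in both channels: all 6 measured cortex markers (among them Star and Hsd3b1) and all 5 chromaffin markers (among them Th and Chga) had a background-subtracted signal above their local background on all 6 arrays. After global loess, which fits 1 intensity curve per array, limma called 8723 of 28703 clones at an adjusted p under 0.05. That background share was 30.4% of clones, with 16.2% called higher and 14.2% called lower in the knockout. After print-tip loess, with a curve of its own for every print block, it was 11.3%, with 6.75% higher and 4.59% lower.

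All 3 Hs6st2 clones had a mean ratio below 0, that is a lower normalized knockout than wild-type signal, after both normalizations. Of the 1217 genes with 3 tested clones, 10.3% had all 3 means below 0 after global loess and 11.1% after print-tip loess. The clone of block 34 gave the strongest signal. Its knockout (green) signal was 1462.2, 1616.4, 1550.8, 1291.9, 1786.7 and 1062.8 intensity units on arrays 1 to 6, against wild-type (red) signals of 1609.6, 772.8, 843.4, 515.3, 1149.2 and 466.5. The knockout channel was thus the brighter one on 5 of 6 arrays before normalization, as it was for the typical spot of those arrays. After global loess the log2 ratios of knockout over wild type were -0.43, -0.20, -0.33, -0.30, -0.51 and -0.74, all 6 below 0. Their mean was -0.42 ± 0.19 (SD, n = 6), a knockout signal 25.2% lower than that of wild type. After print-tip loess they were -0.29, -0.33, -0.40, -0.33, -0.45 and -0.88, again all below 0, with a mean of -0.45 ± 0.22 (SD, n = 6). Array 6 stood lowest in both, and there the green local background of the spot was 167.7 units, against 50.8 to 72.4 on the other arrays. The part of that background in the ratio was not tested, and without array 6 the mean was -0.36 after either normalization.

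**Figure D1:**
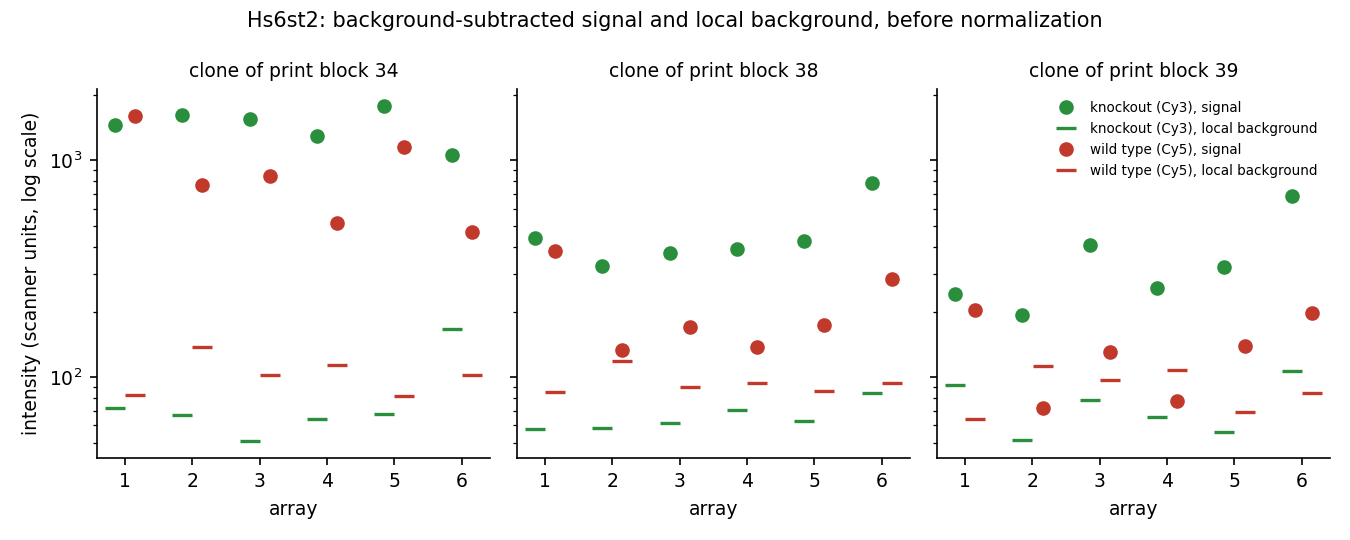
Background-subtracted signal (circles) and local background (dashes) of the 3 Hs6st2 clones on each array, in scanner units on a log axis, with knockout (Cy3, green) left of wild type (Cy5, red). The clone of block 34 lies far above its background in both channels, whereas the wild-type signal of the clone of block 39 falls under its background on arrays 2 and 4.

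The clone of block 38 was dimmer. Its knockout signal was 438.3, 325.7, 374.2, 388.6, 425.9 and 787.9 units, against wild-type signals of 380.4, 133.1, 170.9, 138.3, 173.4 and 282.5. Its log2 ratios after global loess were -0.23, -0.31, -0.26, -0.41, 0.03 and -0.58, so 5 of 6 lay below 0 and array 5 lay near it. The mean was -0.29 ± 0.20 after global loess and -0.33 ± 0.22 after print-tip loess (SD, n = 6 each), or 18.4% and 20.2% lower in the knockout. The wild-type signal of this clone was 1.12 to 4.45 times its local background.

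The clone of block 39 had the weakest signal, with knockout values of 242.0, 193.2, 408.2, 257.0, 321.5 and 686.9 units, against wild-type values of 204.7, 71.8, 130.7, 77.6, 139.5 and 197.3. On arrays 2 and 4 its wild-type signal was smaller than the local background, at 0.635 and 0.717 times it. Its log2 ratios after global loess were -0.33, -0.23, 0.24, -0.32, -0.05 and -0.39. Array 3 lay on the other side of 0, and the mean was -0.18 ± 0.24 (SD, n = 6), or 11.8% lower in the knockout. After print-tip loess the ratios were -0.46, -0.49, -0.11, -0.47, -0.16 and -0.62, all 6 below 0, with a mean of -0.39 ± 0.20 (SD, n = 6), or 23.4% lower. The authors' deposited calibrated ratios, turned to knockout over wild type, averaged -0.54 for the clone of block 34, -0.21 for that of block 38 and -0.02 for that of block 39 on the log2 scale.

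**Figure D2:**
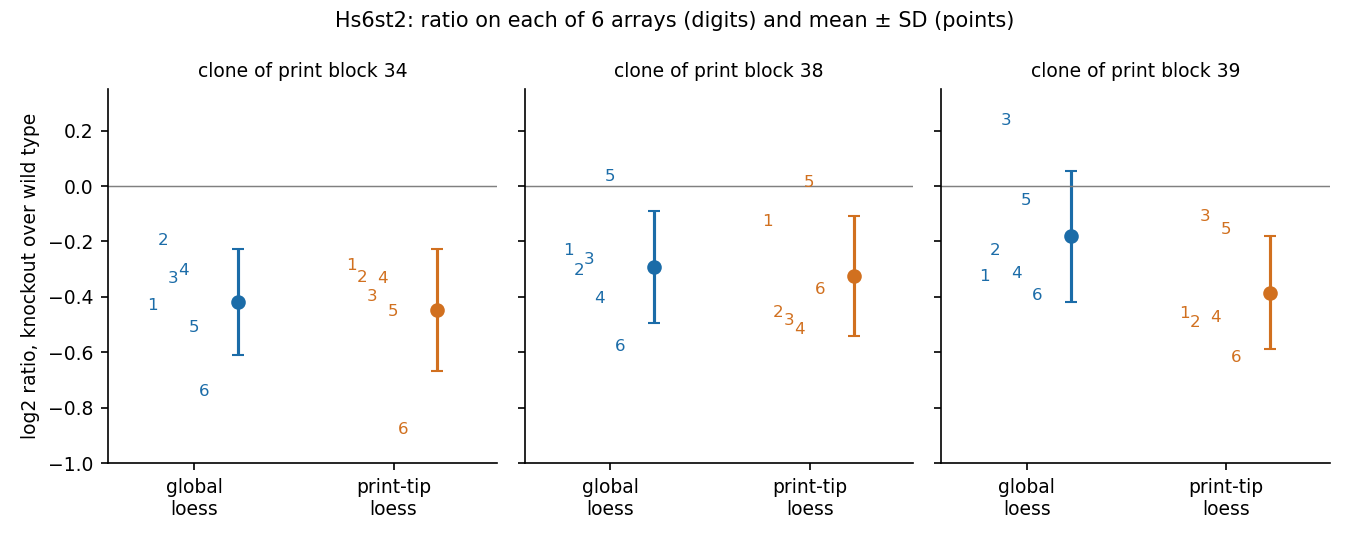
Log2 ratio of knockout over wild type of each Hs6st2 clone on arrays 1 to 6 (digits) with the mean ± SD (points and bars), after global loess and print-tip loess. Of 18 clone values, 16 lie below 0 after global loess and 17 after print-tip loess.

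The ratios of the clones were set against those of their print blocks. After global loess block means of the log2 ratio ran between -0.57 in block 1 and 0.56 in block 48. Blocks 34, 38 and 39 had means of 0.04, 0.08 and 0.27, so each Hs6st2 clone lay below a block whose own mean was above 0. Relative to its block mean the clones stood at -0.46, -0.37 and -0.45, closer together than their ratios themselves. Within their blocks, 2.88% of 556 spots, 8.67% of 623 spots and 4.78% of 586 spots had a lower ratio than the clone of block 34, 38 and 39. The clones' ranges were 0.24 after global loess and 0.12 after print-tip loess. Among 1217 genes with 3 tested clones the median range was 0.58 and 0.32. Averaged over the 3 clones, the gene's log2 ratio was -0.33, -0.25, -0.12, -0.34, -0.18 and -0.57 on arrays 1 to 6 after global loess, with a mean of -0.30 ± 0.16 (SD, n = 6). After print-tip loess it averaged -0.39 ± 0.15 (SD, n = 6). The 3 clones are named for the same gene and were measured in the same RNA, so they are not replicates of the genotype. In whole glands fewer cells expressing a gene and less RNA per cell cannot be told apart.

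**Figure D3:**
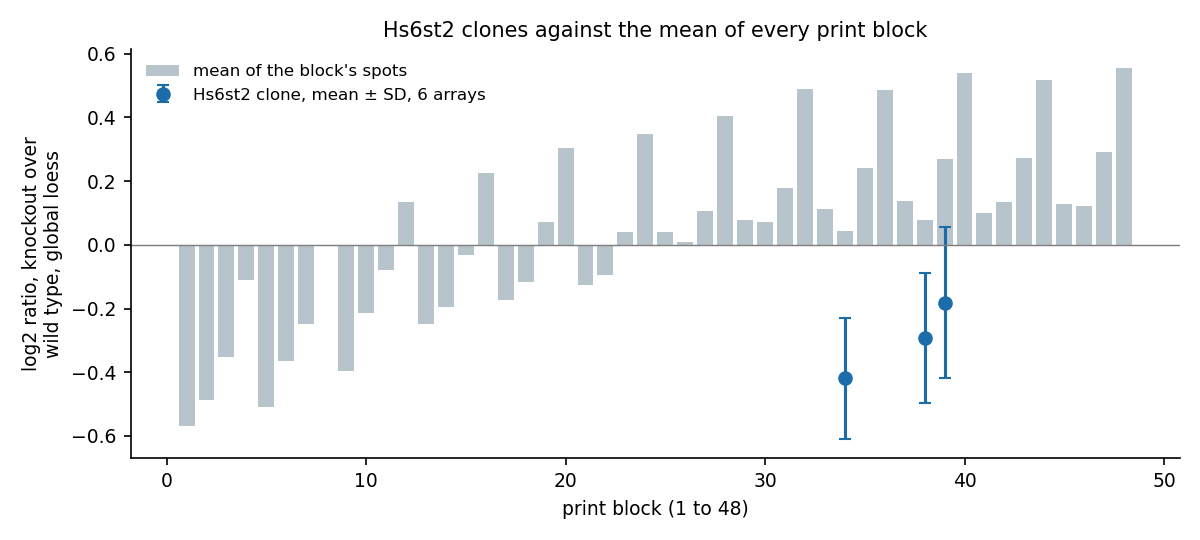
Mean log2 ratio of knockout over wild type of each print block's spots after global loess (grey bars, blocks 1 to 48) and the 3 Hs6st2 clones as mean ± SD over 6 arrays (points). Block means run between -0.57 and 0.56, and the 3 clones lie below the mean of their own blocks.

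The rest of the heparan sulfate machinery was read from the same fit, 1 clone a gene. Of 88 other genes in 10 lists of heparan sulfate metabolism, chondroitin enzymes and FGF signalling, 59 were measured, of which 12 passed as higher and 9 as lower in the knockout after global loess. That is 35.6% called, against 31.0% of all 10400 named genes, and the medians were 0.17 and 0.01. After print-tip loess 8 passed as higher and 4 as lower, or 20.3% called, against 11.1% of all named genes. In the same direction after both, 8 of the 59 genes passed, as did 2018 of the 28703 clones of the whole array. Of the 9 called lower, 7 lay in blocks 1 to 9, and of the 12 called higher, 11 lay in blocks 20 to 48. The means of blocks 1 to 9 were all below 0, at -0.57 to -0.0039. Matching shares of all called clones are not given here, so the counts say nothing particular to the listed genes. Of the 12 called higher, 10 lay in blocks with a mean above 0, as did 1 of the 9 called lower. The part of the print position in these calls was not tested. After print-tip loess without array 2, 3, 4 or 6, no listed gene passed limma's adjusted threshold, while 17 to 20 of the 58 or 59 genes tested had an unadjusted p under 0.05, against 20 of 59 with all arrays. Over the whole array 1 to 23 clones then passed.

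Hs6st1, the other 6-O-sulfotransferase with a clone, did not pass. Its log2 ratio was -0.20, 0.92, 0.23, 0.77, -0.14 and -0.30 on arrays 1 to 6, with 3 above and 3 below 0, and a mean of 0.21 ± 0.17 (SE, n = 6, adjusted p = 0.356 by limma). Without arrays 2 and 4 it was -0.10. The scanner files title that clone as weakly similar to a myotubularin-related protein, and a second clone they title Hs6st1 is annotated to several genes and stood at 0.20 ± 0.14 (SE, n = 6). Of the endosulfatases, Sulf1 stood at 0.18 (adjusted p = 0.364 by limma), and Sulf2 passed as lower after global loess, at -0.44 (adjusted p = 0.0497 by limma), but stood at -0.02 after print-tip loess and lost the call without any 1 of the arrays (adjusted p = 0.0549 to 0.135 by limma). Values for the third 6-O-sulfotransferase, Hs6st3, are not analysed here.

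The shares passing after global loess were 50.0% of 4 linker enzymes, 0.0% of 5 chain polymerases and 42.9% of 7 other modifying enzymes. Of all named genes 31.0% passed. After print-tip loess the shares were 25.0%, 40.0% and 14.3%, against 11.1% of all named genes. Of the linker enzymes, Xylt2 was higher at 0.45 and B4galt7 lower at -0.49 after global loess, and neither passed after print-tip loess, where they stood at 0.10 and -0.0046. Both calls were lost without array 4 (adjusted p = 0.0605 and 0.0655 by limma). By their brightest clones none of the 5 chain polymerases passed limma after global loess, nor had any an unadjusted p under 0.05. A dimmer clone of Extl2 passed there as lower, at -0.73 (adjusted p = 0.0061 by limma), and another Extl2 clone stood at -0.20. Dimmer clones of B3gat3 (linker) and Glce (modifying) also passed, at 0.50 and -0.43 (adjusted p = 0.0125 and 0.0267 by limma). Their brightest clones stood at -0.07 and 0.22. Print-tip loess gave the dimmer clones that passed -0.14, 0.08 and -0.02, without a call. After print-tip loess Ext2, a subunit of the polymerase, was higher at 0.40 ± 0.09 (SE, n = 6, adjusted p = 0.0327 by limma), but its other clones stood at -0.05 and -0.08. Extl1, an exostosin-like glycosyltransferase, was higher at 0.45. The other genes that passed only after print-tip loess were Fam20b, which phosphorylates the linker, at -0.43, and the chondroitin enzyme Csgalnact1, at -0.32. The other clones of Fam20b stood at 0.40 and -0.15 after print-tip loess. Of the other modifying enzymes, Hs3st1, a 3-O-sulfotransferase, was lower at -0.61 ± 0.15 (SE, n = 6, adjusted p = 0.00881 by limma). Print-tip loess gave -0.40 (adjusted p = 0.0350 by limma). Its ratios were -0.19, -0.64, -0.52, -0.94, -0.18 and -1.19, all 6 below 0, and a second Hs3st1 clone in block 3 stood at -0.31 and, after print-tip loess, at 0.068. The call of Hs3st1 after global loess held with any 1 array left out and ended without arrays 2 and 4 (adjusted p = 0.0929 by limma). Hs2st1, the 2-O-sulfotransferase, was higher at 0.79 and Hs3st3b1 lower at -0.39 after global loess, and neither passed after print-tip loess. The call of Hs3st3b1 was lost without array 2, 3, 4, 5 or 6 (adjusted p = 0.0570 to 0.0954 by limma).

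Sulfate for the sulfotransferases comes from the donor PAPS. Slc35b2, which carries PAPS into the Golgi, was higher in the knockout at 1.07 ± 0.21 (SE, n = 6, adjusted p = 0.00339 by limma) and stood at 0.72 after print-tip loess (adjusted p = 0.0530 by limma). Its ratios of 0.44, 1.64, 0.72, 2.27, 0.43 and 0.90 were all above 0, highest on arrays 2 and 4. A second clone of Slc35b2 was higher after both, at 1.15 and 0.63. Papss1, which makes PAPS, was lower at -0.49 after global loess and stood at 0.04 after print-tip loess. Among proteoglycan cores, Gpc1 was higher at 0.82 and 0.88 by the 2 normalizations, with ratios of 0.33, 1.40, 0.65, 1.06, 0.87 and 0.59 after global loess. Another of its clones was lower after global loess, at -0.66, and the third was higher, at 0.46. After print-tip loess these other clones stood at -0.14 and 0.03, without a call. Gpc4, a glypican, was lower by both, at -0.47 ± 0.14 and -0.41 ± 0.11 (SE, n = 6 each, adjusted p = 0.0247 and 0.0426 by limma). After global loess this call was lost without array 2, 4 or 6 (adjusted p = 0.0536, 0.0959 and 0.0559 by limma). The core protein perlecan, Hspg2, was lower at -0.76 after global loess, with -0.15 after print-tip loess, and another of its clones stood at 0.44 after global loess. Gpc6 was higher at 0.35 after global loess, a call lost without array 1, 3, 4, 5 or 6 (adjusted p = 0.0705 to 0.0917 by limma), and stood at -0.24 after print-tip loess, and its second clone was lower after global loess, at -0.60. Of the degrading enzymes, Hpse, whose clone the scanner files title as a chromobox protein, was higher at 0.56 and Hgsnat lower at -0.53 after global loess, and neither clone passed after print-tip loess. The call of Hpse was lost without array 4 (adjusted p = 0.0770 by limma). A second Hgsnat clone was higher after both, at 0.63 and 0.58. Of the chondroitin enzymes, Chst15 was higher by both, and Dsel was lower after global loess, at -0.56 on 4 arrays. The brightest clones of Chst15 and Hs6st1 had a background-subtracted signal above local background in both channels on only 3 of 6 arrays. For Xylt2, Hs2st1, Hpse and Dsel this held on 4 arrays, and for Sulf1, Sulf2 and Fgf13 on 5. A second clone of Chst15 stood at 0.18 after global loess and -0.02 after print-tip loess, and passed after neither. Dimmer clones of Bpnt2 (0.33, 0.62 and 0.43), Sdc2 (0.66), Sdc3 (0.44 and 0.49) and Chpf (0.67) also passed as higher after global loess. Their brightest clones stood at 0.002, 0.20, -0.38 and 0.36, without a call. Further clones of Bpnt2 stood at -0.30 and 0.11, and 1 of Sdc2 at 0.18. After print-tip loess none of these clones passed.

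The FGF list had 5 of 8 measured genes called higher after global loess and 4 after print-tip loess, and none lower. Of all 10400 named genes, 1686 and 791 were called higher. Fgfr2, an FGF receptor, stood at 0.46 and 0.60 by the 2 normalizations, and Fgfrl1, an FGF receptor-like protein without a kinase domain, at 0.82 and 0.67. The other 3 clones of Fgfr2 stood at 0.70, 0.12 and 0.84 after global loess, while a second clone of Fgfrl1 stood at -0.43. Without array 2, 3 or 4 the call of Fgfr2 after global loess was lost (adjusted p = 0.110, 0.0809 and 0.128 by limma). Fgf10 and Fgf13 also passed after both. After global loess Fgf10 lost its call without array 2, 4, 5 or 6 (adjusted p = 0.0531 to 0.120 by limma), and Fgf13 without array 2, 3 or 4 (adjusted p = 0.0542 to 0.0748 by limma). Fgfr1 was higher at 0.87 after global loess and stood at 0.17 after print-tip loess, and its second clone stood at -0.21 and 0.15. Of the cortex markers, 4 of 6 measured were called higher after global loess and 3 after print-tip loess, against the same counts of all named genes. Of the chromaffin markers, 3 of 5 were called higher after global loess and 1 after print-tip loess, and 1 was called lower after each. The part of tissue makeup in the values of Hs6st2 and of these lists was not tested.

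**Figure D4:**
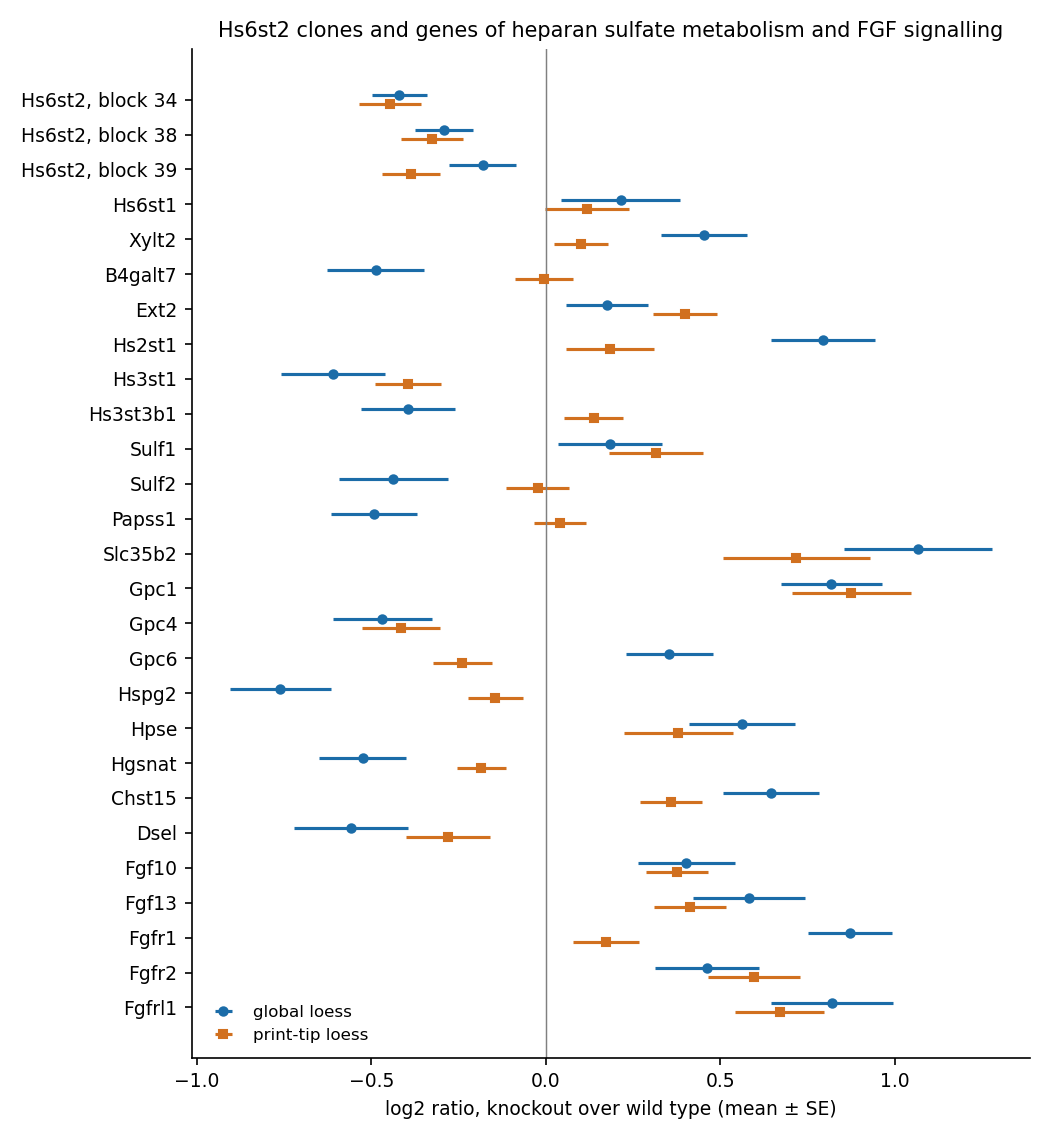
Log2 ratio of knockout over wild type, mean ± SE, of the 3 Hs6st2 clones and 24 genes of heparan sulfate metabolism and FGF signalling after global loess (circles) and print-tip loess (squares). For the Hs6st2 clones the SE is the SD over the square root of the number of arrays, and for the 24 genes it is limma's. Their bar lengths are thus not comparable. Hs3st1 and Gpc4 lie below 0 after both, whereas Papss1 and Hs3st3b1 change side.

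On the X chromosome the nearest measured genes differed in direction. Gpc4 lies 369 kb from Hs6st2 and was lower, as above, with ratios of -0.06, -0.44, -0.29, -0.84, -0.19 and -0.99. Gpc3, the next glypican, stood at 0.32 ± 0.15 (SE, n = 6, adjusted p = 0.127 by limma), and passed without array 5, at 0.44 (adjusted p = 0.0462 by limma). On the other side Frmd7 was higher at 1.36 ± 0.15 (SE, n = 6, adjusted p = 0.000285 by limma), and print-tip loess gave 0.78 (adjusted p = 0.0276 by limma). Firre was higher at 0.46 after global loess, a call lost without array 3 (adjusted p = 0.0568 by limma), and stood at -0.17 after print-tip loess. Rap2c, on the same side as Firre, stood at -0.04 after global loess. Phf6, on the side of Gpc4 and Gpc3, also stood at -0.04. Over 324 measured X-linked genes the median was 0.02, against 0.01 over all named genes. As a check of the sexes behind the RNA, which the labels leave out, Xist, the RNA of the inactive X, stood at 0.07 ± 0.11 (SE, n = 6). Eif2s3y, a Y-linked gene, was higher in the knockout at 0.55 ± 0.14 (SE, n = 6, adjusted p = 0.0105 by limma) after global loess and stood at 0.20 after print-tip loess (adjusted p = 0.199 by limma). The part of sex in the ratio of Hs6st2 was not tested.

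The genes with the most similar pattern were found by the root mean square difference from the clone of block 34 over the 6 arrays, after global loess, among the brightest clones of 8692 genes. They were Eif1ax at 0.06, Fez2 at 0.12, Sec61a1 at 0.13, Rprd2 at 0.13 and Hdgfl3 at 0.14 log2 units, whereas the median gene was at 0.59. Only 1 of 2 clones of Fez2 and 1 of 4 clones of Sec61a1 had a ratio of the same sign as the Hs6st2 clone, and the scanner files title the Sec61a1 clone fatso. The other Hs6st2 clones were at 0.26 and 0.33. After print-tip loess these genes ranked 1250, 1824, 6809, 2259 and 420 of 8692. The values compared share the 6 arrays, and nothing is said here of shared function.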

How the data were processed

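Adrenal RNA of PACAP -/- and PACAP +/+ mice was read on 6 two-colour arrays. Per the series design text, the authors subtracted background, normalized ratios and kept ratios of quality above 0.3. The intensity columns, as deposited for red and green, were background-subtracted, because the median over 768 empty positions was 1.0 for either channel. The deposited calibrated ratio sets red over green and divides it by an array constant. The deposited quality is a fraction of 0 to 1. The authors' series value table holds log2 ratios of red over green, with background subtracted again and values floored at 1. The sources used here name no versions of the image software.

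Log2 ratios of knockout over wild type were computed from the deposited intensities, without further background correction. The 1097 control or empty spots, and spots of quality up to 0.3, were dropped. Global loess was the normalization, with print-tip loess beside it. Clones measured on at least 4 arrays were fitted with limma 3.58.1 in R 4.3.3, adjusted by Benjamini-Hochberg over 28703 clones at a threshold of 0.05. The script was tested on simulated data. Genes were named through the annotation of the value table, 99.8% of whose rows were linked to a spot by their values. Symbols follow RefSeq (GRCm38.p6). Tables were handled in Python 3.11.15. The members and lists were chosen with earlier results of these data known. Each gene was represented by its brightest clone. The text names every Hs6st2 clone, each 6-O-sulfotransferase and endosulfatase measured, the members of each other list past the threshold or else that with the smallest p, the 5 genes of most similar pattern and the 3 nearest measured X-linked genes on each side. Extl1, Extl2, Fam20b, B3gat3, Glce, Csgalnact1, Bpnt2, Sdc2, Sdc3, Chpf and second clones were named after their values were seen.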

Additional observations from a re-analysis of the deposited data

Results flagged for a closer look

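The log2 ratio of knockout over wild type of the Hs6st2 clone of block 34 on array 6 after print-tip loess was -0.88, far from the other 5 arrays, which lay between -0.45 and -0.29. Of the 35 groups of 6 array values examined this way, 1 stood apart, and chance flags about 1 in 20 such groups.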

How the results depend on the processing

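The number of arrays and the single dye orientation limit these values, and the wild-type signal was near its local background for many spots of some arrays. The mean ratios of the 3 Hs6st2 clones stayed below 0 under print-tip loess, median centring, a second background subtraction, normexp and both other quality settings. They ranged over -0.54 to -0.42 for block 34, -0.38 to -0.22 for block 38 and -0.39 to -0.028 for block 39. With 1 array left out the ranges were -0.46 to -0.36, -0.36 to -0.24 and -0.26 to -0.14. In the authors' deposited value table, with the sign turned, the clones of blocks 34, 38 and 39 averaged -0.40, 0.85 and 2.37. Centring each array here on its own median, which takes off 1.16 on average, gave -1.57, -0.31 and 1.21, so the sign of block 38 depends on the centring. As deposited, the clone of block 39 stood at 5.79 on arrays 2 and 4, where its wild-type signal was under its local background and was floored. On the other arrays it stood at -0.244 to 1.995. The centred table, with a median of 0.43 over all clones, called 73.7% of its 9902 clones higher, against 53.3% of 8723 in the main analysis. No paired analysis was possible because each array is already 1 pair of knockout and wild type.

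The count of clones past the threshold was 8723 after global loess, 3256 after print-tip loess, 2400 with background subtracted again, 5645 with normexp and 2238 without arrays 2 and 4, an alternative chosen after seeing the data, which called 72.3% of them higher. With 1 array left out it was 4485 to 8661 after global loess and 1 to 3765 after print-tip loess, and 93 after print-tip loess without arrays 2 and 4. Of the 59 listed genes, 21 passed after global loess, 12 after print-tip loess, 6 with background subtracted again, 11 with normexp and 6 without arrays 2 and 4. With 1 array left out 11 to 19 passed, and after print-tip loess 0 to 12, with 0 also without arrays 2 and 4, where limma gave 14 an unadjusted p under 0.05.

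Some genes changed sign, and the cause was not tested. After print-tip loess Hs3st3b1 stood at 0.14, Papss1 at 0.041, Gpc6 at -0.24, Firre at -0.17 and Rap2c at 0.17. In the authors' value table after this median centring, Ext2 stood at -0.65, Slc35b2 at -0.013, Gpc4 at 0.18, Gpc6 at -0.41, Dsel at 0.65, Fgfr1 at -0.34, Fgfr2 at -0.67, Fgfrl1 at -0.33, Firre at -0.12, Gpc3 at -0.18, Rap2c at 1.24 and Phf6 at 1.37. As deposited, without the centring, all 12 of these were above 0, as was the median of every array (0.10 to 2.60). The values below 0 were thus so only after the centring. That table also has background subtracted again and values floored at 1, and the part of each step was not tested. With median centring Rap2c stood at 0.085 and Phf6 at 0.038, and with no quality filter Rap2c at 0.032. Hs6st1 without arrays 2 and 4 stood at -0.10. With 1 array left out Rap2c ran between -0.17 and 0.074, and Phf6 between -0.15 and 0.085.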
